A study of Mus musculus with 12 samples.

Results

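The distal part of mouse chromosome 11, from position 116000000 of the mm10 build to the last annotated gene, carries Sirt7, the gene deleted in the Sirt7-/- mice of this study. It holds 216 RefSeq gene starts of known strand, of 45274 in the genome, and 142 of them belong to protein-coding genes, 52 to lncRNAs and the rest to small RNAs and pseudogenes. A region of 3000 bp to either side of each start was searched for H3K36ac peaks. The stretch was chosen from measured values of these same samples, because promoters near Sirt7 had peaks in Sirt7-/- samples and none in WT samples. The difference between genotypes is therefore given here as a description, without a test. Sirt7 itself lies on the minus strand and starts at 120625014, and distances below are measured from that position. At the edge of the stretch, the last 4 starts outside it, up to Itgb4 at 115974725, had no peak in any sample, and of the first 3 inside it Galk1 had none, H3f3b had a peak in 1 Sirt7-/- and 1 WT sample and Unk in 2 Sirt7-/- samples and 1 WT sample. The edge is a set position and not a limit of the calls. From 115525329 to 116325328, which crosses it, 6 starts had a peak in all 3 Sirt7-/- samples, and none of these lay inside the stretch.

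H3K36ac was mapped by ChIP-seq in spermatogonia-enriched testis cells of WT and Sirt7-/- mice on the 129S1/Sv background, taken at postnatal day 5 (Pnd 5), with 50000 cells per sample. Each genotype had 3 samples, numbered 2, 3 and 4, and none was treated. Samples came from separate mice, as the study's methods state. The Sirt7-/- mice lack the gene in every cell, somatic cells included. Spermatogonia were enriched by the slower attachment of germ cells to plastic, not by sorting. The values are peak lists, 1 per sample, in which the authors had called broad enrichment over each sample's own input DNA. The lists held 2840, 2045 and 2591 peaks in Sirt7-/- 2, 3 and 4, and 906, 64 and 294 peaks in WT 2, 3 and 4, so that fewer WT peaks were to be found at any start. They contain no read counts, so the depth behind a call is not known from them, and the lack of a peak does not show that the mark was absent. The study gives the clean reads of each library, which were not used here. A stronger mark per cell and more cells that carry it cannot be told apart in such samples. Of 10 spermatogonial markers, Zbtb16, Dazl, Gfra1 and Uchl1 each had a promoter peak in 1 Sirt7-/- sample and none in WT samples. Of 5 Sertoli markers, Sox9 had one in 1 Sirt7-/- sample, and of 5 Leydig and peritubular markers none had one in any sample. Peak calls alone therefore do not check the labelled cell type.

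As background, SIRT7 is an NAD+-dependent deacetylase of the nucleus and nucleolus, and acetylated lysine 36 of histone H3 is among its substrates. H3K36ac is found mainly at active gene starts, in contrast to trimethylation of the same residue, which covers the bodies of transcribed genes. Active starts often lie in CpG islands, stretches of DNA rich in the dinucleotide CG. Distal chromosome 11 is dense in short, broadly expressed genes, and many of its starts lie back to back, so that a single peak can fall within 3 kb of several starts.

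The DNA just upstream of the starts is shown first, since the comparison turns on which starts carried a peak. RefSeq promoter sequences of GRCm38.p6, the assembly behind mm10, were matched for 153 of the 216 starts (70.8%) and for 14 of the 16 starts with a peak in every Sirt7-/- sample. The 250 bases before the start are printed for 3 genes near Sirt7 that had a peak in every Sirt7-/- sample and in none of WT, for P4hb, which was called in 2 Sirt7-/- samples, and for Pycr1, which lies closer to Sirt7 and was not called in any sample. They run 5′ to 3′ on the strand of the gene, and capitals mark CG.
Arhgdia (chr11:120581625-120581874, minus strand): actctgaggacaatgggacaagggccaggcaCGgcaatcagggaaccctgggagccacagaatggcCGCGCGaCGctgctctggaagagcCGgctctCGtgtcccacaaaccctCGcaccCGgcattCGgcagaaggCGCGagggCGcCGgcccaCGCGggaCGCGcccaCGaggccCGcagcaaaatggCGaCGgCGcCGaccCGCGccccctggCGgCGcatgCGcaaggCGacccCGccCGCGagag
Actg1 (chr11:120348496-120348745, minus strand): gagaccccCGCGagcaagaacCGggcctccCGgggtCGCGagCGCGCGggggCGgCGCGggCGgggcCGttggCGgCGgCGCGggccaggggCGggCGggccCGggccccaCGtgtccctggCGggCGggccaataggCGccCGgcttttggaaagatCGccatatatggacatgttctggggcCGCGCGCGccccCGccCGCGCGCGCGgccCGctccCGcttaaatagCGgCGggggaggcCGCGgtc
Aspscr1 (chr11:120672723-120672972, plus strand): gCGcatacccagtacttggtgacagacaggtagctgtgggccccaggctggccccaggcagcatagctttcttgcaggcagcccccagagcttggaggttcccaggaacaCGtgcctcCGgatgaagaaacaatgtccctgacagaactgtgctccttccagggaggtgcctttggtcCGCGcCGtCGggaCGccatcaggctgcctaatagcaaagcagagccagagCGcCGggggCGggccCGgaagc
P4hb (chr11:120573254-120573503, minus strand): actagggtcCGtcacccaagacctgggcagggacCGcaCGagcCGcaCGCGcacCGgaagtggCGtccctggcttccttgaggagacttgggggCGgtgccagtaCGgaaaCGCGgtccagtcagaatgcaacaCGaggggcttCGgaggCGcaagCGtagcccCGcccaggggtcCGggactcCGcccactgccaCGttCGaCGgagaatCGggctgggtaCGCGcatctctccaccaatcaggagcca
Pycr1 (chr11:120643749-120643998, minus strand): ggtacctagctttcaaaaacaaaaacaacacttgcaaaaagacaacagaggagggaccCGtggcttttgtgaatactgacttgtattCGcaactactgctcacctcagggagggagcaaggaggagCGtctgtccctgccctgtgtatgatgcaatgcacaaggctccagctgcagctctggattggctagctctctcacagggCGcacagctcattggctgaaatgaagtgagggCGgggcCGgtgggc

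The upstream sequence of Actg1 held 43 CG dinucleotides, that of Arhgdia 33, that of P4hb 25, that of Aspscr1 12 and that of Pycr1 6. All 250 bases upstream of Arhgdia lay inside the peak of Sirt7-/- 2 and of Sirt7-/- 3, and 220 of them inside that of Sirt7-/- 4. At Actg1, which faces the lncRNA 0610009L18Rik across the printed bases, 113, 152 and 52 bases lay in the peaks of the same samples. At Aspscr1 none did, as all 3 peaks began downstream of the start. The 14 starts with sequence that were called in all Sirt7-/- samples had a median of 32.5 CG dinucleotides and 69.8% G and C, beside a median of 6 and 52% over the 27025 genes with sequence, of which 91.7% held at least 1. CG was counted once, as it reads the same on both strands. Back-to-back starts share part of these bases, as Actg1 and 0610009L18Rik do, and both are counted, so the 14 sequences are not independent. Within the stretch the median was 14 and 60% over all 153 starts with sequence. It was 23 and 66.4% over the 25 called in 1 or 2 Sirt7-/- samples or in WT only. The uncalled starts with sequence had a median of 9 and 57.8%, but these were 114 of 166 (68.7%). The 27025 genes with sequence are likewise only part of the 45274 starts. Such coverage makes a check of CG content against the calls void. The sequences also precede the start of the RefSeq promoter entry, which for some genes is not the start used for the calls. These starts lay 150556 bp apart at Rbfox3 and 4567 bp at Prpsap1, both uncalled. They lay 1408 bp apart at Mafg and 619 bp at Fasn, both called in all Sirt7-/- samples. The entry of Prpsap1 starts inside peaks of Sirt7-/- 3 and 4, yet the gene counted as uncalled. The medians include such genes. The part of CG content in the calls was not tested.

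In each of the 3 Sirt7-/- samples 27 of the 216 starts (12.5%) had a peak. In WT 2, 3 and 4 the numbers were 17 (7.87%), 0 and 4 (1.85%). The 27 starts were not the same in the 3 Sirt7-/- samples, and the genotypes did not overlap in this number. Among all 45058 starts outside the stretch 7.49%, 5.54% and 6.78% were called in Sirt7-/- 2, 3 and 4, and 2.49%, 0.189% and 0.817% in WT 2, 3 and 4. Starts of the stretch were thus called more often than others in every list except that of WT 3, which had no peak in the stretch among its 64. A larger part of them is protein-coding than elsewhere. Among protein-coding starts alone the Sirt7-/- shares were closer, at 14.8%, 14.8% and 14.1% in Sirt7-/- 2, 3 and 4 beside 13.2%, 9.70% and 11.7% outside the stretch. In WT 2, 3 and 4 they were 7.04%, 0% and 2.11% beside 4.36%, 0.319% and 1.35%. Counted per list, 18 of 2840, 22 of 2045 and 19 of 2591 Sirt7-/- peaks and 9 of 906, 0 of 64 and 2 of 294 WT peaks lay in the stretch. These are 0.634%, 1.08% and 0.733% of the Sirt7-/- lists and 0.993%, 0% and 0.680% of the WT lists, and by this measure the genotypes overlapped. Peaks covered 12610, 11919 and 12585 bp of the stretch in Sirt7-/- 2, 3 and 4. In WT 2, 3 and 4 the length was 4377, 0 and 958 bp.

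**Figure D1:**
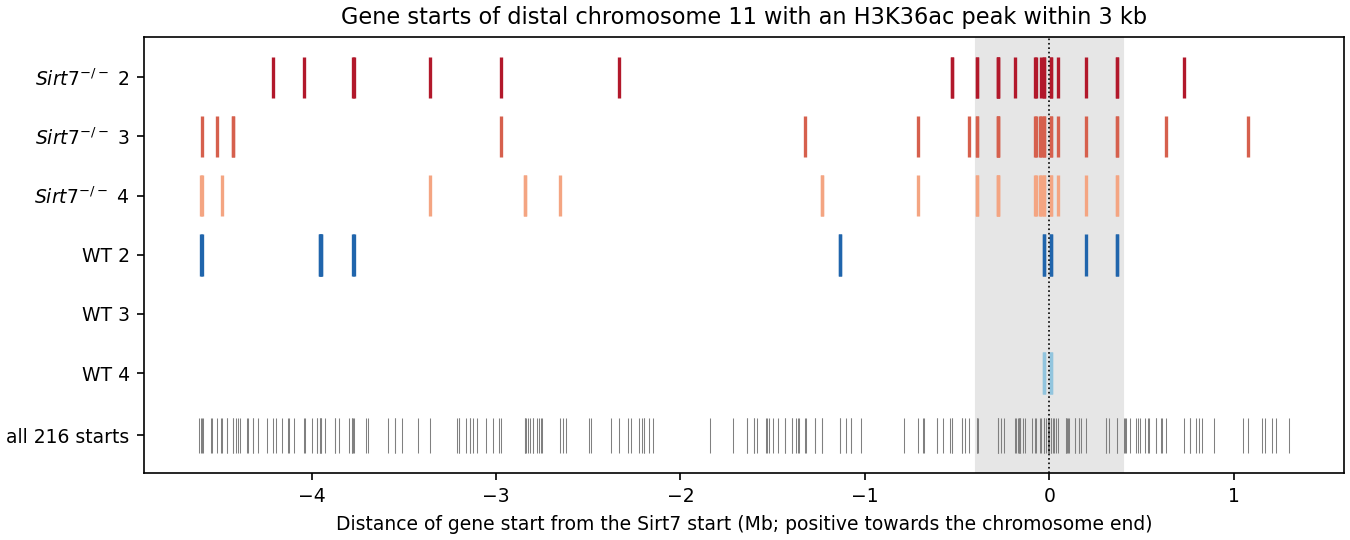
Position of each gene start with an H3K36ac peak within 3 kb, by sample, along distal chromosome 11 (horizontal axis, distance from the Sirt7 start in Mb, positive towards the chromosome end). Each tick is 1 start, the bottom row shows all 216 starts, the dotted line is the Sirt7 start and the grey band covers 400 kb to either side. The 3 Sirt7-/- rows share most of their ticks inside the band and few outside it, and WT 3 has none.

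Over the 6 lists, 50 of the 216 starts (23.1%) had at least 1 peak, where the share over all 45274 starts was 11.3%. These 50 starts, 37 of them protein-coding, fall into 34 distinct groups, a group being the starts that share a peak, so they are not independent observations. A peak in at least 2 Sirt7-/- and in no WT samples was found at 13 starts (6.02%, with 3.7% over all starts), which form 9 groups. For 9 of them (4.17%, with 1.37% over all starts) it was found in all 3 Sirt7-/- samples. Without regard to WT, 16 starts (7.41%, with 2.9% over all starts) were called in all 3 Sirt7-/- samples. At 11 starts (5.09%, with 2.68% over all starts) at least 1 sample of each genotype had a peak, at 20 (9.26%, with 4.67% over all starts) only 1 Sirt7-/- sample did, and at 6 (2.78%, with 0.281% over all starts) only a WT sample did. The contrast chose the stretch, so nothing is read from these shares. With peaks of −log10 q at or above 2, 7 of the 13 starts kept the call, 6 lost it and Fasn gained it as its WT 2 peak was dropped. With flanks of 1000 bp 8 of the 13 kept it, and 0 did when every list was reduced to its 64 best peaks, the length of the shortest list. Among protein-coding starts alone the share called in at least 2 Sirt7-/- and no WT samples was close to that over the genome, at 9 of 142 (6.34%) beside 6.47% over all 21468 protein-coding starts. It was 8.37% for the 1446 protein-coding starts on the rest of chromosome 11 and 5.95% for those of other gene-dense stretches. For calls in all 3 Sirt7-/- samples the protein-coding share was 7.75% in the stretch, 5.09% over the genome and 6.43% on the rest of chromosome 11. For a peak in any sample these shares were 26.1%, 19.7% and 22.8%.

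Within the stretch, the starts with a peak in all 3 Sirt7-/- samples were gathered around Sirt7. Outside the stretch, 6 more such starts lay between 115525329 and its centromeric edge, though not among the last 4 starts before that edge. All 16 inside the stretch lay between 393 kb on the centromeric side and 366 kb on the telomeric side of Sirt7. They ran from 120231617 to 120991364 and formed 9 distinct groups. Within 400 kb of Sirt7, a distance taken after the values were seen, 17 of 50 starts (34%) were called in each Sirt7-/- sample, and 7 (14%), 0 and 4 (8%) in WT 2, 3 and 4. Beyond 400 kb, 10 of 166 starts (6.02%) were called in each Sirt7-/- sample, 10 in WT 2 and 0 in the other two WT samples, and 0 of the 166 were called in all 3 Sirt7-/- samples. Near Sirt7 the Sirt7-/- samples mostly called the same groups of starts, with 10 distinct groups in each. The peaks of a group need not overlap between samples, and at Bahcc1 those of Sirt7-/- 2 and 3 did not. Farther out the 8, 9 and 8 groups of Sirt7-/- 2, 3 and 4 were mostly called in 1 sample each. Of the 23 groups beyond 400 kb, 17 were called in a single sample, and of the 11 within it, 1 was.

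The part of the zone nearest to Sirt7 held coding genes of several kinds. Arhgdia, which encodes a protein that holds small GTPases in their inactive form, starts 43.4 kb from Sirt7 on its centromeric side. Its start lay inside the peaks of all 3 Sirt7-/- samples, which ran from 120581161 to 120582294 in Sirt7-/- 2, from 120581157 to 120581995 in Sirt7-/- 3 and from 120580719 to 120581844 in Sirt7-/- 4. The authors' fold over input was 3.52, 5.13 and 3.42, and by −log10 q the peaks ranked 849 of 2840, 295 of 2045 and 1285 of 2591 in their lists. The peak thus stood highest in the list of Sirt7-/- 3 and near the middle of that of Sirt7-/- 4, and 0 WT lists had a peak there. Mcrip1, a small protein that binds the corepressor CtBP, starts 75.3 kb from Sirt7, and its peaks had folds of 3.29, 4.51 and 3.24 in Sirt7-/- 2, 3 and 4. Those of Sirt7-/- 2 and 4 ranked low, at 2205 of 2840 and 2093 of 2591, while that of Sirt7-/- 3 ranked 593 of 2045. Ppp1r27, a regulatory subunit of protein phosphatase 1, starts upstream of Mcrip1 on the same strand and was called through these same peaks, whose midpoints lay 1372.5 to 1687 bp downstream of its start.

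P4hb, which encodes protein disulfide isomerase, an enzyme of protein folding in the ER, starts between Mcrip1 and Arhgdia. It had a peak in Sirt7-/- 3 (from 120573556 to 120573956, fold 3.94) and a wider one in Sirt7-/- 4 (from 120572582 to 120573966, fold 4.12), and none in Sirt7-/- 2 or in WT samples. On the telomeric side, Aspscr1, also known as TUG, a protein that tethers vesicles with the glucose transporter GLUT4, starts 48.0 kb from Sirt7. Its peaks had folds of 5.51, 6.08 and 3.81 in Sirt7-/- 2, 3 and 4 and ranked 148 of 2840, 175 of 2045 and 1087 of 2591. No other start with a peak in every Sirt7-/- sample and none in WT ranked as high in Sirt7-/- 2 and 3, and WT lists had no peak there.

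On either side, the called starts closest to Sirt7 were called in WT samples as well. Alyref, an adaptor for the export of mRNA from the nucleus, and Anapc11, the RING subunit of the anaphase-promoting complex, start 22 bp apart on opposite strands, 26.6 kb from Sirt7. Their shared peak was called in 5 of the 6 samples. Its fold was 4.07, 5.52 and 4.17 in Sirt7-/- 2, 3 and 4, 4.47 in WT 2 and 7.51 in WT 4. In WT 4 it was the second best peak of the list, at rank 2 of 294, whereas it ranked 1296 of 2840, 263 of 2045 and 841 of 2591 in the Sirt7-/- lists and 447 of 906 in WT 2. Folds from separate lists are not on a common scale and do not order the samples. Mafg, a small MAF transcription factor that pairs with NRF2 and its relatives, shares its peaks with the lncRNA Gm17586, 8.74 to 9.94 kb from Sirt7. They were called in the same 5 samples, at folds of 4.18, 5.32 and 5.77 in Sirt7-/- 2, 3 and 4, 5.17 in WT 2 and 4.85 in WT 4. Their midpoints lay 1697.5 to 1911 bp inside the gene from the start in the gene table, and RefSeq places another start of Mafg 1408 bp inside it, next to these peaks. WT 3 had neither of the 2 peaks.

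The rest of the 20 starts within 100 kb, 11 in all, had no peak in any sample. They include Sirt7 itself and Mir6936 within it, Pcyt2 of phosphatidylethanolamine synthesis, Pycr1 of proline synthesis, the glucagon receptor Gcgr, the neuropeptide Npb, the secreted Wnt inhibitor Notum, Myadml2, the centrosomal Lrrc45, the centromere protein Cenpx and the small GTPase Rac3. In Sirt7-/- samples the start of Sirt7 may be altered by the deletion, whose bounds are not given in the sources used here. Called and uncalled starts alternated. Pcyt2, Npb and Pycr1, all uncalled, lie between or beside Alyref and Mafg, which were called in 5 samples.

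**Figure D2:**
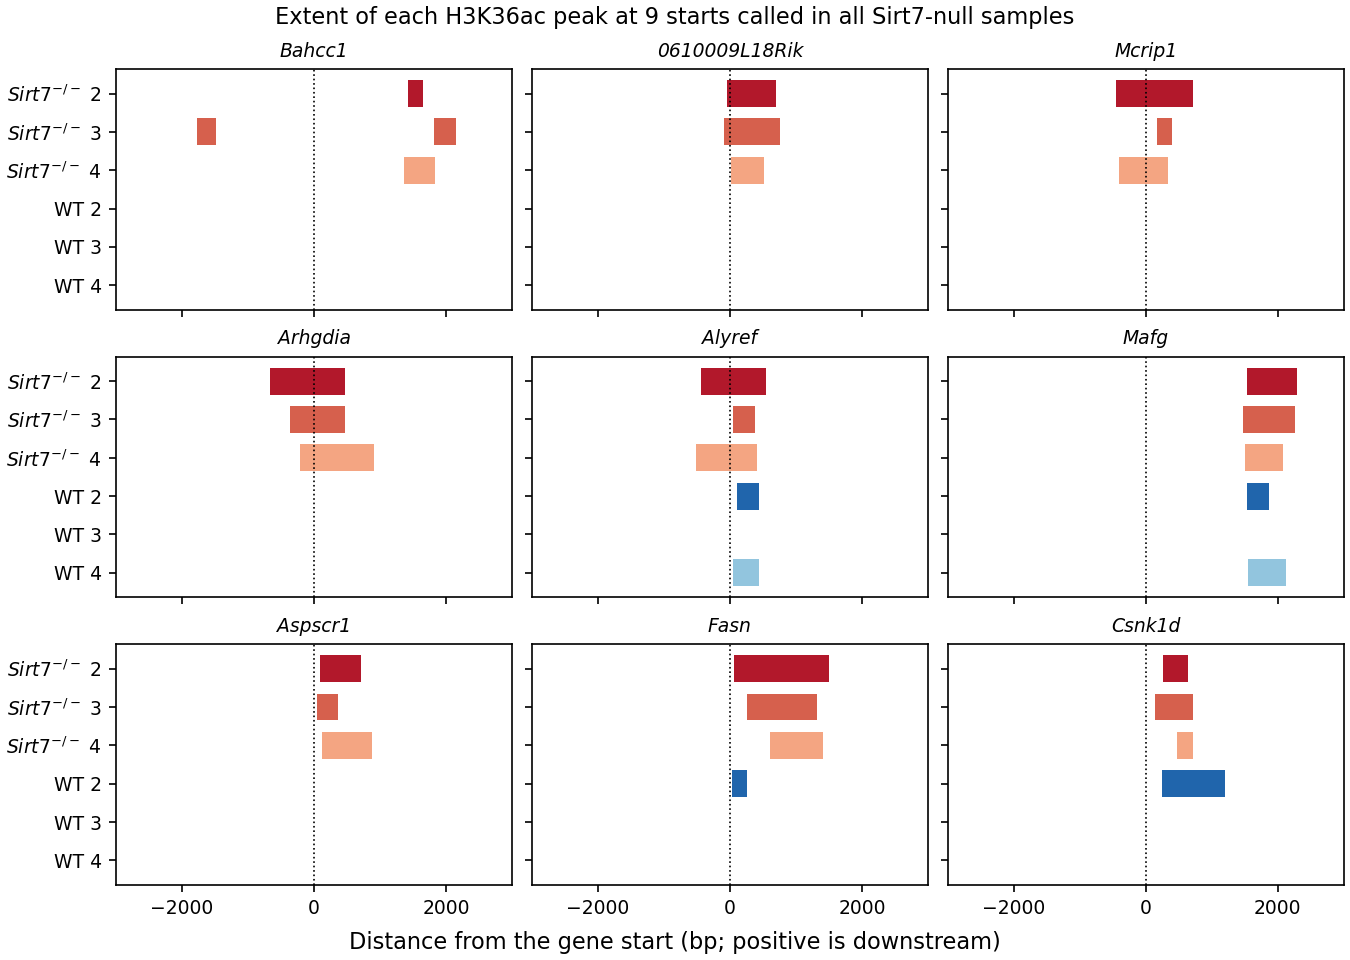
Extent of each peak at 9 starts, 1 for each distinct group called in all Sirt7-/- samples, by sample (horizontal axis, distance from the gene start in bp, positive downstream). Bars are peaks as the authors called them, the dotted line is the start in the gene table, and rows without a bar had no peak. The bars at Arhgdia, Mcrip1 and Aspscr1 fall in the Sirt7-/- rows and those at Alyref and Mafg also in WT 2 and WT 4.

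Between 100 and 400 kb from Sirt7 there were 4 more groups called in all 3 Sirt7-/- samples. Actg1, the gene of cytoplasmic γ-actin, starts back to back with the lncRNA 0610009L18Rik 277 kb from Sirt7, and Mir6935 starts nearby. Their shared peak had folds of 4.65, 5.98 and 4.76 in Sirt7-/- 2, 3 and 4 and ranked 677 of 2840, 198 of 2045 and 431 of 2591. Relative to the start of Actg1 the midpoints lay at −517.5 to −449.5 bp, which is upstream of it and downstream of the start of the lncRNA, and the WT lists had no peak there. Bahcc1, a BAH domain protein of chromatin, and the lncRNA 2900052L18Rik were also called in all 3 Sirt7-/- and in no WT samples, but less uniformly. The peak called in Sirt7-/- 2 and 4 lay 1536 and 1603 bp inside Bahcc1, and Sirt7-/- 3 had one 1978 bp inside it and another upstream of it, at −1632 bp. In the same direction, Nploc4, a cofactor of the AAA ATPase p97, had a peak in Sirt7-/- 2 alone (fold 5.17, rank 360 of 2840).

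On the telomeric side, Fasn, the fatty acid synthase, starts 200.2 kb from Sirt7. Its peaks were 1442, 1062 and 799 bp wide in Sirt7-/- 2, 3 and 4, with folds of 4.42, 4.65 and 4.55. WT 2 had a narrow peak of 230 bp there, which ranked 870 of 906. It overlapped the peaks of Sirt7-/- 2 and 3 and did not reach that of Sirt7-/- 4. Csnk1d, casein kinase 1δ, a kinase of the circadian clock proteins, starts 366 kb from Sirt7. It had a peak in the 3 Sirt7-/- samples and in WT 2, with folds of 3.99, 4.73, 4.62 and 4.56. In WT 2 that peak was the widest of the 4, at 953 bp against 373, 589 and 233 bp.

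By distance, the calls did not fall off evenly. Within 100 kb of Sirt7 8, 9 and 9 of 20 starts were called in Sirt7-/- 2, 3 and 4, and 4, 0 and 4 in WT 2, 3 and 4. From 100 to 250 kb they numbered 2, 1 and 1 of 18 in the Sirt7-/- samples and 1, 0 and 0 in the WT samples. From 250 to 500 kb they rose again to 7, 8 and 7 of 23, with 2, 0 and 0 in WT. From 100 to 250 kb there were 17 protein-coding starts, of which only those of Nploc4 and Fasn were called, and Hgs, Mrpl12, Slc25a10, Gps1 and Faap100 were among the others. Farther out, 3, 2 and 1 of 25 starts were called from 500 to 1000 kb, 0, 2 and 2 of 38 from 1000 to 2000 kb, and 7, 5 and 7 of 92 beyond 2000 kb in Sirt7-/- 2, 3 and 4. WT 2 had 8 of its 17 called starts beyond 2000 kb, and WT 4 had all 4 within 100 kb. The share called in at least 2 Sirt7-/- and no WT samples was 25% within 100 kb and 4.08% beyond it, a difference of 20.9 percentage points. It was 6.94 points with peaks of −log10 q at or above 2, which removed the calls at Mcrip1, Ppp1r27 and P4hb. Beyond the 100 kb but within 400 kb it was 16.7% (5 of 30 starts). The starts called in all Sirt7-/- samples lay on both sides, 5 of 10 on the centromeric and 3 of 9 on the telomeric side within 100 kb. Those called in at least 2 Sirt7-/- and no WT samples lay mostly on the centromeric side. Within 100 kb they were 4 of 10 there and 1 of 9 on the telomeric side, and from 250 to 500 kb 5 of 11 and 0 of 12. Aspscr1 was the only telomeric start so called.

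**Figure D3:**
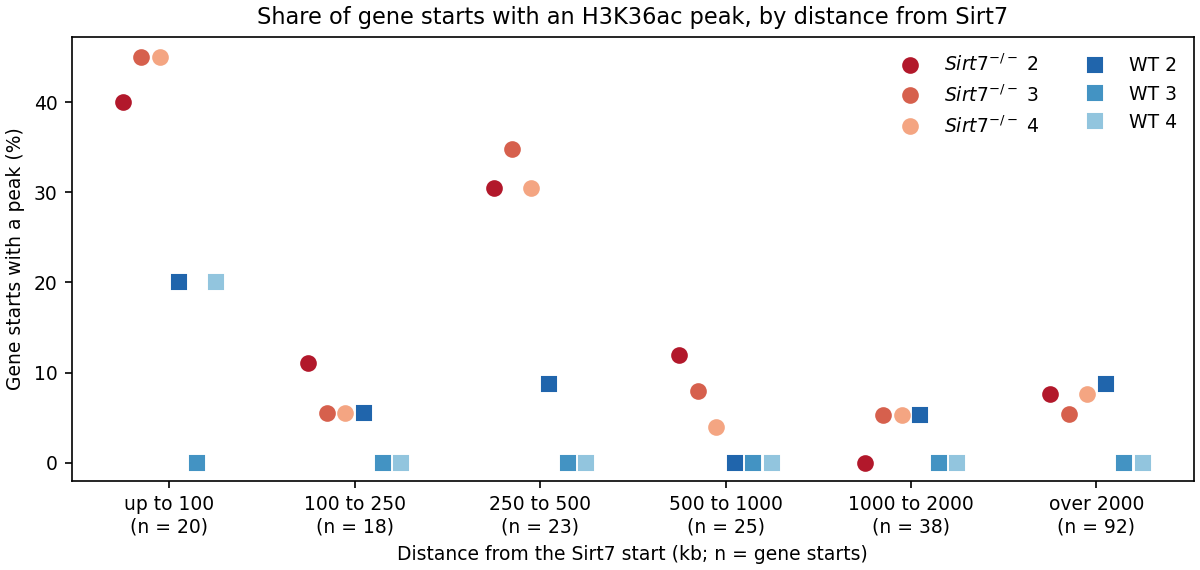
Share of gene starts with a peak (vertical axis, %) in each sample, in 6 ranges of distance from the Sirt7 start (horizontal axis, kb, with the number of starts). Circles are Sirt7-/- and squares are WT samples, 1 point per sample. The Sirt7-/- points are high up to 100 kb and from 250 to 500 kb, and low between and beyond.

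Other gene-dense autosomal stretches of the same 5.93 Mb were then counted the same way, taking the 49 with at least 95 protein-coding starts. In the share of starts called in at least 2 Sirt7-/- and no WT samples, distal chromosome 11 was not unusual, at 6.02% beside a median of 4.67% (range 0 to 11.1%), and 9 of the 49 (18.4%) were higher. With flanks of 1000 bp 53.1% were higher, and without Sirt7-/- 2 4.08% were and without Sirt7-/- 4 8.16%. For protein-coding starts the median was 6.25% and 23 of the 49 were higher than its 6.34%. It stood farther up in the share called in all 3 Sirt7-/- samples, 7.41% beside a median of 2.99%, with 3 of the 49 higher. The number of distinct groups so called was 9 beside a median of 5, again with 3 higher. In the mean share over the Sirt7-/- samples 4 of the 49 were higher (12.5% beside a median of 7.22%). In the mean share over the WT samples 2 were (3.24% beside a median of 1.04%), so the stretch ranked high in both genotypes. In WT 2 its share of 7.87% was above that of every other stretch, of which the highest had 7.33%, and 4 of its 17 starts there share a single peak at Snhg16.

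The groups called in 3 Sirt7-/- samples lay close together. All 9 (100%) fitted within 800 kb. All groups so called did so in 7 of the 49 other stretches too, but those stretches had only 1 or 2 such groups each. The most that any of the 49 had within that length was 5 (median 2). With peaks of at least 500 bp only, the 9 became 4, and the most elsewhere was 3. Windows of 800 kb were compared in the same way. The window centred on Sirt7 held 50 starts, 41 of them protein-coding, and 16 starts (32%) in 9 groups were called in all 3 Sirt7-/- samples. In 97 other autosomal windows with at least 28 protein-coding starts the median was 1 group and the highest 5. The highest share of starts was 28.1%, in a window of chromosome 7 from 44524060 to 45324059. That window had more starts called in all 3 Sirt7-/- samples than the window around Sirt7, 18 of 64 in 5 groups. In the share called in at least 2 Sirt7-/- and no WT samples that same window of chromosome 7 was higher, at 28.1% beside 20% around Sirt7, with a median of 2.70% over the 97. Sliding a window of 800 kb along all autosomes gave at most 6 groups on any other chromosome, on chromosome 7. The length and the centre of this window were taken after the values were seen, and the ranks describe these 6 lists and are not tests.

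**Figure D4:**
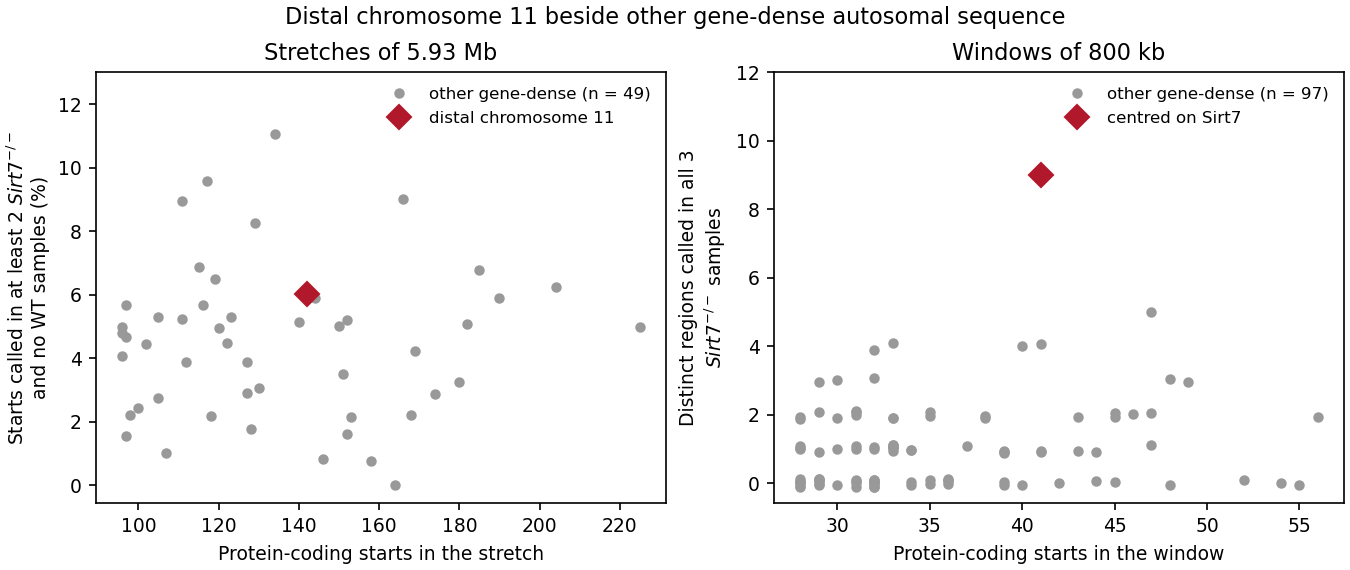
Left, share of starts called in at least 2 Sirt7-/- and no WT samples (vertical axis, %) against the number of protein-coding starts, for distal chromosome 11 (diamond, 6.02%) and 49 other stretches of 5.93 Mb. Right, number of distinct regions called in all 3 Sirt7-/- samples against protein-coding starts, for the window of 800 kb centred on Sirt7 (diamond, 9) and 97 other windows, whose whole numbers are spread slightly up and down so that points can be told apart. The diamond lies within the cloud on the left and above it on the right.

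Beyond 400 kb most called starts rested on 1 sample. Those called in 2 Sirt7-/- samples were Unk, an RNA-binding zinc finger protein, which WT 2 also had, Gm39478, Tnrc6c, a partner of Argonaute proteins in silencing by miRNAs, and Chmp6, an ESCRT-III subunit of endosomes. The peaks of Sirt7-/- 2 and 4 near Gm39478 did not overlap. Their midpoints lay at −1060 and −2900.5 bp from its start, and they ranked 2290 of 2840 and 2210 of 2591. At Tnrc6c the peaks of Sirt7-/- 2 and 3 were wide, 1179 and 1232 bp, and ranked low, at 2244 of 2840 and 1868 of 2045. At Chmp6 the peaks of Sirt7-/- 3 and 4 were narrow, 229 and 363 bp. Srsf2, a splicing factor, was called in Sirt7-/- 2 and in WT 2, and H3f3b, a gene of histone H3.3, in Sirt7-/- 4 and in WT 2.

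The 6 starts with a peak in WT 2 and in no Sirt7-/- sample come from 2 peaks. The peak at Snhg16, a host gene of small nucleolar RNAs, ran from 116671931 to 116672141 and also falls near Snord1a, Snord1b and Snord1c. The peak at Endov, an endonuclease that cuts at inosine in RNA, ran from 119491433 to 119491781 and also falls near A930037H05Rik. They ranked 772 and 843 of 906, near the end of the list, and no other WT sample had them.

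Genes of the stretch were also grouped by function, in lists that were drawn up with earlier results of these data known. Of 61 listed genes of the stretch 20 (32.8%) had a peak in any sample, beside 23.1% of its 216 starts and 11.3% of all starts. In all 3 Sirt7-/- samples 8 (13.1%) had one, beside 7.41% and 2.9%. In at least 2 Sirt7-/- samples and none of WT 6 (9.84%) did, beside 6.02% and 3.7%. In the list of ubiquitin, AAA ATPase and endosome genes 7 of 9 had a peak, all in Sirt7-/- samples alone. Calls in Sirt7-/- samples alone were also the most common kind over the genome. Of the 5132 starts with any peak, 1212 had one in each genotype and 127 in WT only. Aspscr1 was called in 3 and Chmp6 in 2 of them, and Ube2o, the deubiquitinase Usp36, Tepsin, Nploc4 and the autophagy gene Wdr45b in 1 each. In the cytoskeleton and small GTPase list 2 of 8 had a peak, Actg1 and Arhgdia, and the other 6 (Rac3, Baiap2, Tbcd, Arl16, Rab40b and Cyth1) had none. Of 6 genes of RNA processing 4 had one. Alyref was called in 3 and Tnrc6c in 2 Sirt7-/- samples, and Srsf2 and Eif4a3, a component of the exon junction complex, in 1. Jmjd6 and Mettl23 were not called.

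Of 7 genes of lipid synthesis and growth signalling Mafg and Fasn were called in all 3 Sirt7-/- samples, Socs3, a feedback inhibitor of cytokine signalling, and the forkhead factor Foxk2 in 1 each, and Pcyt2, Rptor and Sphk1 in none. Of 7 genes of cell division and DNA synthesis only Anapc11 and Csnk1d had a peak, and Birc5, Tk1, Cenpx, Cep131 and Faap100 had none. Of 4 lysosome and ER genes only P4hb was called, and Gaa, Sgsh and Engase were not. None of 5 mitochondrial genes (Mrpl12, Slc25a10, Pycr1, Oxld1, Pgs1) or of 15 tissue-restricted genes had a peak in any of the 6 lists. The tissue-restricted genes included the pineal enzyme Aanat, the glucagon receptor Gcgr, the retinal Pde6g and Fscn2, the neuronal Nptx1 and Rbfox3, and Cd7 of lymphocytes.

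A set of 3 properties of the peaks was compared within each sample between peaks at starts of the stretch and peaks at all other starts. The 4 lists with at least 5 such peaks in the stretch were used (Sirt7-/- 2, 3 and 4 and WT 2). The choice of the stretch had not used the midpoint or the width. The percentile of −log10 q bears on which peaks enter a list, so it is not independent of that choice. The midpoint lay 314 bp downstream of the nearest start on average over samples in the stretch and 286 bp elsewhere. The difference of 27.9 ± 53.8 bp (SD, n = 4) had the same sign in 3 of 4 samples (exact permutation test over sign flips, two-sided, p = 0.375, Benjamini-Hochberg adjusted p = 0.5 over the 3 properties). The median width was 524 bp in the stretch and 449 bp elsewhere, a difference of 74.5 ± 154 bp (SD, n = 4) that was above 0 in 2 of 4 samples (same exact test, p = 0.5, adjusted p = 0.5). The median percentile of −log10 q in the sample's own list was 56.2 in the stretch and 51.1 elsewhere, a difference of 5.10 ± 5.48 (SD, n = 4) that was above 0 in 3 of 4 samples (same exact test, p = 0.25, adjusted p = 0.5). None of the 3 differences exceeded the spread between samples, and with 4 samples the test cannot go below 0.125. Most peaks of the stretch lay downstream of the nearest start, as did most peaks elsewhere. In Sirt7-/- 2, 3 and 4 these were 15 of 18 (83.3%), 16 of 20 (80%) and 14 of 18 (77.8%), beside 80.2%, 78.7% and 79.3% at all other starts. In WT 2 they were 8 of 9 (88.9%), beside 80.2%.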

How the data were processed

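Anti-H3K36ac ChIP-seq was performed on cells enriched for spermatogonia (3 WT and 3 Sirt7-/- samples, each with an input library). Inputs entered only through the authors' peak calling. After trimming (Trim Galore 0.6.6) and alignment to mm10 (Bowtie2), the authors removed reads of mapping quality below 30 (SAMtools 1.19.2). Duplicates and reads not mapped to a unique place were removed with Sambamba. They then ran MACS2 2.2.5 on each sample for broad peaks, with a broad cutoff of 0.1. No spike-in factor was applied. For every peak the deposited files hold a score, a ratio (fold enrichment over input) and the −log10 p and −log10 q of the authors' caller. The score was not used here. The others serve to describe or rank a peak within its own list.

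Gene starts came from the RefSeq table of GRCm38.p6 (49997 genes). Strand came from RefSeq promoter entries (27025 genes, 153 members) or, by name, from GENCODE vM39 (18249 genes, 63 members). Both sources gave a strand for 22231 genes and differed for 128, none of them a member, and 13 genes of the stretch without strand were left out. A start was called in a sample when a peak overlapped its 3000 bp flanks by at least 1 bp. Gene-dense stretches of the same length were tiled from each autosome's last gene end and had at least 2 in 3 as many protein-coding starts. The members and gene lists were chosen with earlier results of these data known, and the window of 800 kb and the zone of 400 kb after the values were seen. The genes named are all protein-coding starts within 100 kb of Sirt7, at most 10 starts called in at least 5 samples, the best ranked (at most 10) of those called in every Sirt7-/- sample and in none of WT, those called in WT only, and the gene lists. Others named in the text were chosen after their values were seen. Same-numbered samples showed no shared deviations (r of −0.0335, −0.0861 and 0.0128 over 4467 merged regions). With WT lists this short, such values cannot tell whether same-numbered samples were prepared together. No pairing was assumed outside the replicate block. P-values measure only the spread between these samples. The software was matplotlib 3.10.9, SciPy 1.17.1, NumPy 2.4.6, pandas 2.3.3 and Python 3.11.15, and peak assignment was tested on simulated data. Alternatives were a −log10 q minimum of 2, flanks of 1000 bp, protein-coding starts only, peaks of at least 500 bp, equal numbers of peaks, a common −log10 p minimum, other tilings, a replicate block and each sample left out. Some members and their results are not reported here.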

Additional observations from a re-analysis of the deposited data

Results flagged for a closer look

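Of the 70 peaks in the stretch, 3 lay more than 3 kb from every member start of the gene table, all in Sirt7-/- lists, while the WT lists had 0 there. They form 2 regions. The first, from 116489754 to 116490568, lies inside Prpsap1, which encodes a protein associated with phosphoribosyl pyrophosphate synthetase, and was called in Sirt7-/- 3 and 4. The gene table starts Prpsap1 at 116494913, but its RefSeq promoter entry starts 4567 bp inside that, at 116490346, which lies within this region. The other, from 117963681 to 117963942, lies in no annotated gene and was called in Sirt7-/- 3. The comparisons of gene starts do not use these 3 peaks.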

How the results depend on the processing

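The lists differ in length, and the counts follow the peaks kept. Keeping peaks of −log10 q at or above 2 gave 8 starts called in at least 2 Sirt7-/- and no WT samples, not 13 (7 kept, 6 lost, and Fasn gained as its WT 2 peak was dropped), and the share within 100 kb exceeded that beyond by 6.94 percentage points, not 20.9, since Mcrip1, Ppp1r27 and P4hb were lost. A common −log10 p minimum of 5.99, added after seeing the data, gave 8 and 6.94, again with 7 of the 13 kept. Flanks of 1000 bp left 8 starts, all among the 13, and then 53.1% of the 49 stretches were higher in this share, not 18.4%. That figure was 46.9% for protein-coding starts and 8.16% with peaks of at least 500 bp. It ran from 4.08% (without Sirt7-/- 2) to 22.4% (without WT 4) when each sample was left out, and was 8.16% without Sirt7-/- 4. The 9 groups within 800 kb became 4 with peaks of at least 500 bp (highest elsewhere 3), 6 with the −log10 q minimum (elsewhere 4), 6 with the common −log10 p minimum (elsewhere 3), 8 with flanks of 1000 bp (elsewhere 6), and 9 or 10 when a sample was left out (elsewhere 5 to 8). With the 64 best peaks of every list, 0 starts were called in at least 2 Sirt7-/- and no WT samples, the mean shares of the genotypes differed by 0 rather than 9.26 percentage points, the difference by distance was 0 and 0 groups were left within 800 kb. This alternative removes most Sirt7-/- peaks by construction. The replicate block gave the same difference of 9.26, from pairs that differed by 4.63, 12.5 and 10.6 percentage points. The midpoint difference turned to −1.56 bp with flanks of 1000 bp, and the percentile difference to −2.15 with the −log10 q minimum, and the cause was not tested. The depth behind the lists is not known from them, so a start without a peak may carry the mark below the limit of its list.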
